A study of Mus musculus with 12 samples.

Results

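The transcription factor genes Gata1 and Gata2 and the cofactor gene Zfpm1, which encodes FOG1 (friend of GATA1), were followed in G1ME cells. All probe sets whose single annotated symbol is one of these genes were taken, which gave 3 of 18193 genes and 5 of the 45101 probe sets in the table. Gata1 has 1 probe set, Gata2 has 2 and Zfpm1 has 2, and all 5 passed the filter on low values. G1ME is a mouse line of megakaryocyte-erythroid progenitors without GATA1, and every array here comes from that Gata1-negative background. The cells were transduced with the retroviral vector MIGR1-GFP alone or with MIGR1-GFP expressing GATA1, and GFP-positive cells were sorted after 18 h or 42 h. Each of the 4 groups (vector 18 h, GATA1 18 h, vector 42 h, GATA1 42 h) has 3 arrays, lettered A, B and C and described as biological triplicates. The labels do not say whether G1ME is 1 clone, how the endogenous Gata1 gene was disrupted, or which species, form or transcript ends of GATA1 the construct carries.

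GATA1 and GATA2 are zinc finger proteins that bind the DNA word GATA. GATA2 acts in stem cells, progenitors and mast cells, and GATA1 drives the maturation of red cells, megakaryocytes, mast cells and eosinophils. In erythroid precursors GATA1 is known to replace GATA2 at regulatory sites of the Gata2 gene and to silence it, a step called the GATA switch. FOG1 binds the amino-terminal zinc finger of GATA factors rather than DNA, and recruits corepressors such as the NuRD complex. It is required for most of the erythroid and megakaryocytic action of GATA1.

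The sequence just before the listed start of Gata1 and before both listed starts of Gata2 is shown. The probe sets of these genes were the members that were lower at 42 h. The RefSeq span of Gata1 is chrX:7959260-7976663, so its listed start lies inside the gene and not at its outer end. Sequences are from the RefSeq promoter table for GRCm38.p6, read 5′ to 3′ on the strand of the gene over the 250 bases before each start. Capitals mark the core word GATA and the word CCAAT, each searched on both strands.
Gata1, chrX:7967911-7968160, minus strand: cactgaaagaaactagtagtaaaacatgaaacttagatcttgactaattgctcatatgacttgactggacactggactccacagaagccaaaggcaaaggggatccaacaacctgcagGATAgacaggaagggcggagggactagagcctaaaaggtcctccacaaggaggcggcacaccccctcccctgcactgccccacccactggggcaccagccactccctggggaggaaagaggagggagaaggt
Gata2 first start, chr6:88193641-88193890, plus strand: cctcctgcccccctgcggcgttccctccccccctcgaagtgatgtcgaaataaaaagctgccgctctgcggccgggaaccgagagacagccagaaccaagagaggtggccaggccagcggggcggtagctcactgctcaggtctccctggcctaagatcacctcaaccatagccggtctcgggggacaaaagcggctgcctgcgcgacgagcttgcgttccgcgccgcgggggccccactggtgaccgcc
Gata2 second start, chr6:88198414-88198663, plus strand: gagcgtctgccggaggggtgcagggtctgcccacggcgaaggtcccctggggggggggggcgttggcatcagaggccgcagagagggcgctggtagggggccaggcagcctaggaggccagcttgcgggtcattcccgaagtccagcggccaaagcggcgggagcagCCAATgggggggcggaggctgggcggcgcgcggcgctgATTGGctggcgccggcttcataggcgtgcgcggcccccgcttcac

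The Gata1 window holds 1 GATA word, which begins 132 bases before the start. The Gata2 windows and the Zfpm1 window hold 0. The Zfpm1 window, chr8:122281891-122282140 on the plus strand, lies inside the RefSeq span of Zfpm1, which begins at 122281856. The second Gata2 window likewise lies inside the span of its gene. The longer word AGATAA, which contains the core word, was found in 0 of the 4 windows. The same held for the words made from it by putting T first, G last, or both. Of the 32851 windows of this length in the table, 53.6% hold GATA and 26.5% hold at least 1 of these longer words. The second Gata2 window holds 2 CCAAT words, which 33.8% of all windows have at least once. The windows of Gata2 and Zfpm1 are rich in G and C (67.2%, 74% and 73.2%, against a median of 52.4% over all windows), and that of Gata1 is less so (54%). These are matches of letters only, and the regulatory sites that GATA factors are known to use at these genes can lie outside such short windows.

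Values below are the deposited linear intensities, given for each array or as the mean ± SD (n = 3). Differences are between means of log2(intensity + 16), given with the SE of limma's fit over all 12 arrays. Adjusted p-values are limma's, with Benjamini-Hochberg adjustment over the 22881 probe sets tested. Array medians ran from 8.05 to 8.29, and the number of arrays limits the precision. One technical reading differed by replicate letter: a control for the 5′ end of 18S rRNA stood at 8.32 to 12.4 (log2) on arrays lettered A, 5.53 to 10.6 on those lettered B and 4.79 to 6.75 on those lettered C. Without the 2 arrays of highest 18S signal (GATA1 42 h replicate A and vector 18 h replicate B), the 42 h differences of Gata2 were -2.11 ± 0.33 and -1.90 ± 0.27 (limma adjusted p = 0.00665 and 0.00429). A second reading moved with the group: the control for the 5′ end of beta-actin stood at 14.69, 14.87 and 14.97 (log2) on GATA1 42 h arrays A, B and C and at 15.03 or more on the other 9. The control for its 3′ end stood at 15.33 to 15.49 and at 15.51 or more. GATA1 42 h replicate A also had the lowest reading for the 5′ end of Gapdh (14.65), and the part of these controls in the results was not tested. The progenitor markers Kit, Myb and Itga2b were measured in vector-labelled cells, while Cd34, a marker of earlier progenitors, lay near the bottom of the scale in all groups (means between 5.04 and 5.11).

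The single Gata1 probe set, 1449232_at, was bright in vector-labelled cells and dimmer in GATA1-labelled cells. At 18 h the vector-labelled arrays A, B and C read 2815, 2864 and 3329, and the GATA1-labelled arrays read 2311, 2257 and 2435. At 42 h the vector-labelled arrays read 3088, 3053 and 3268, and the GATA1-labelled arrays read 2418, 1714 and 1999. The 6 vector-labelled arrays were thus all above the 6 GATA1-labelled arrays. The share of all probe sets that separates these 6 from those 6 arrays was not counted. The labels do not locate these probes on the disrupted part of the gene or on the retroviral transcript, so this probe set does not check the labels. The directions below rest on the labels, and the arrays are called vector-labelled and GATA1-labelled.

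At 18 h the Gata1 difference was -0.36 ± 0.11 (95% confidence interval -0.61 to -0.10), with an adjusted p of 0.325 by limma. At 18 h all GATA1-labelled arrays lay below all vector-labelled ones, and 13.7% of all probe sets tested separated the groups that way in either direction. At 42 h 27.1% did. At 42 h the Gata1 probe set was lower by -0.63 ± 0.11 (interval -0.88 to -0.37), 1.55-fold, with an adjusted p of 0.00511 by limma. The 42 h difference was -0.35, -0.83 and -0.71 within letters A, B and C. The call at 42 h was lost with only the 6 arrays compared (adjusted p = 0.0512 by limma) and without the 4 arrays lettered B (0.103) or C (0.0946), over a range of 8.77e-04 to 0.103 for its 26 alternatives. In vector-labelled cells Gata1 differed by 0.07 ± 0.11 between 18 h and 42 h. In order of level the groups were vector 42 h, vector 18 h, GATA1 18 h and GATA1 42 h. Neither the first pair nor the last pair in that order passed the test between times (limma adjusted p = 0.998 and 0.356).

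**Figure D1:**
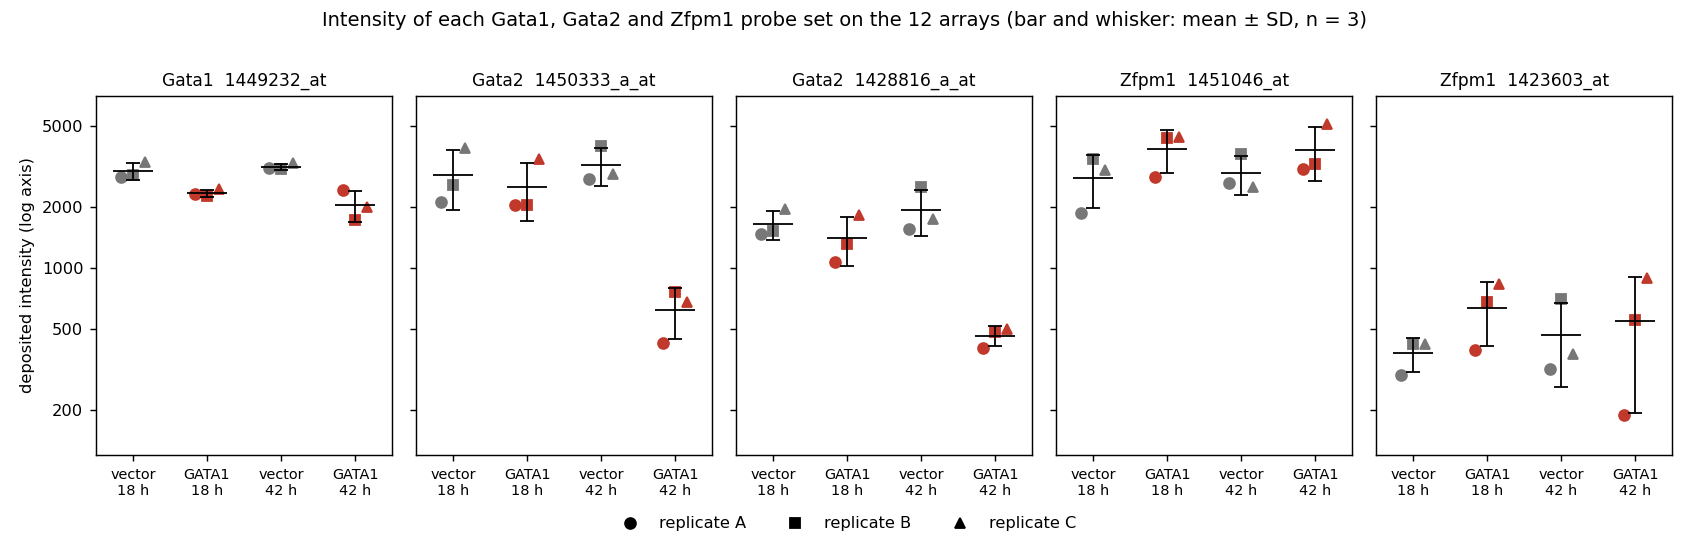
Deposited intensity (log axis) of the 5 probe sets on the 12 arrays, by group, with point shapes for replicate letters and bars for the mean ± SD (n = 3). Both Gata2 probe sets sit between 404.9 and 762.7 on the 3 GATA1-labelled arrays at 42 h and at 1072 or above on the other 9.

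Gata2 was lower in GATA1-labelled cells at 42 h on both of its probe sets. The brighter one, 1450333_a_at, read 2729, 3985 and 2910 on vector-labelled arrays A, B and C at 42 h, and 425.9, 762.7 and 680.5 on the GATA1-labelled arrays. The other, 1428816_a_at, read 1552, 2487 and 1741 on the vector-labelled arrays, and 404.9, 483.3 and 502.4 on the GATA1-labelled ones. The GATA1-labelled arrays at 42 h lay below all other arrays on both probe sets. Of all probe sets tested 27.1% separated the groups at 42 h in either direction, and the share that separates from all other arrays was not counted.

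For 1450333_a_at the change at 42 h was -2.36 ± 0.31 (interval -3.05 to -1.66), a 5.12-fold fall with an adjusted p of 8.56e-04 by limma. For 1428816_a_at it was -1.99 ± 0.22 (interval -2.50 to -1.49), a 3.99-fold fall with an adjusted p of 3.25e-04 by limma. Within letters A, B and C the change was -2.64, -2.36 and -2.07 on the first probe set and -1.90, -2.32 and -1.76 on the second. The groups do not overlap, so any pairing of arrays would give falls and the shared sign is no separate result. Both calls at 42 h held under each of the alternatives run, 26 for the first probe set and 25 for the second, with adjusted p up to 0.0493 and 0.0376. Among all 22881 probe sets tested, 52 had a more negative change at 42 h than 1450333_a_at.

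At 18 h the Gata2 probe sets did not pass the test. The first read 2109, 2551 and 3900 on vector-labelled and 2036, 2038 and 3418 on GATA1-labelled arrays, and the second read 1464, 1511 and 1939 against 1072, 1311 and 1815. The groups overlapped on both probe sets at 18 h, and the C array was the highest of each group. The differences were -0.19 ± 0.31 (interval -0.89 to 0.51) and -0.25 ± 0.22 (interval -0.75 to 0.26). The intervals still allow a fall at 18 h. Without GATA1 18 h replicate A the second difference was -0.07. On the first probe set the sign at 18 h turned to 0.06 without vector 18 h replicate C.

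Over time, Gata2 fell in GATA1-labelled cells between 18 h and 42 h, by -1.97 ± 0.31 on 1450333_a_at (limma adjusted p = 0.00400) and by -1.53 ± 0.22 on 1428816_a_at (limma adjusted p = 0.00271). The arrays of the times did not overlap on either probe set, as for 26.4% of all probe sets tested. Both calls were lost without the 4 arrays lettered B (limma adjusted p = 0.0861 and 0.0831) or C (0.0613 and 0.0604). In vector-labelled cells the Gata2 differences over time were 0.20 ± 0.31 and 0.21 ± 0.22, and neither passed the test.

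The effect of the GATA1 label on Gata2 was larger at 42 h than at 18 h by the interaction test, by -2.17 ± 0.44 on 1450333_a_at (limma adjusted p = 0.0344) and by -1.75 ± 0.32 on 1428816_a_at (limma adjusted p = 0.0207). The sign of this difference held in all alternatives, but its call did not. For 1450333_a_at the call was lost on leaving out any 1 array except vector 18 h replicate C and GATA1 42 h replicate B, with limma adjusted p up to 0.0888. For 1428816_a_at it was lost without vector 18 h replicate A (limma adjusted p = 0.0567), vector 18 h replicate B (0.0610) or GATA1 18 h replicate B (0.0544). Without the filter on low values the limma adjusted p was 0.0980 and 0.0609, and without the 4 arrays of any 1 letter it was at least 0.151 and 0.0921. Without the 2 arrays of highest 18S signal it was 0.127 and 0.111. Over all alternatives it ranged from 0.0127 to 0.413 for the first probe set and from 0.00855 to 0.408 for the second.

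**Figure D2:**
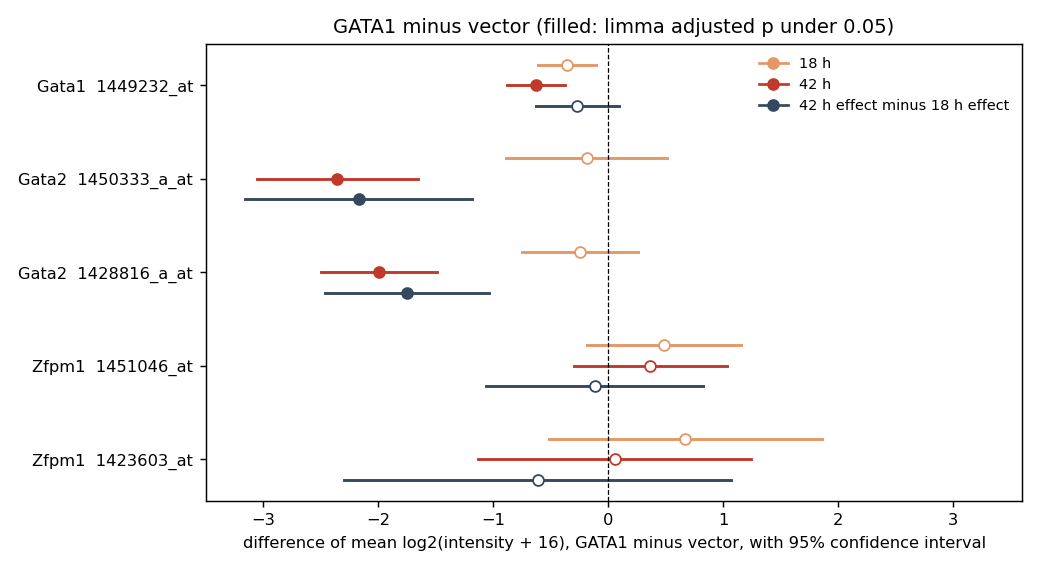
Difference of mean log2(intensity + 16), GATA1-labelled minus vector-labelled, for each probe set at 18 h and 42 h and for the 42 h effect minus the 18 h effect, with 95% confidence intervals from limma; filled points passed the threshold. The 42 h intervals of Gata2 run from -3.05 to -1.66 and from -2.50 to -1.49, and those of Zfpm1 include 0.

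Zfpm1 did not pass the test in any of the comparisons. At 18 h the brighter probe set, 1451046_at, read 1866, 3432 and 3040 on vector-labelled and 2803, 4348 and 4402 on GATA1-labelled arrays. At 42 h it read 2611, 3635 and 2498 on vector-labelled and 3061, 3240 and 5123 on GATA1-labelled arrays. The groups overlapped at both times. The difference was 0.48 ± 0.30 at 18 h (interval -0.18 to 1.15) and 0.36 ± 0.30 at 42 h (interval -0.30 to 1.03, limma adjusted p = 0.532). Within letters A, B and C it was 0.58, 0.34 and 0.53 at 18 h, and 0.23, -0.17 and 1.03 at 42 h. Without vector 18 h replicate A the 18 h difference was 0.22. The 42 h difference was 0.13 without GATA1 42 h replicate C and 0.03 ± 0.37 without all arrays lettered C.

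The dimmer Zfpm1 probe set, 1423603_at, varied more between replicates. It read 296.7, 421.1 and 423.2 on vector-labelled and 393.5, 682.7 and 828.7 on GATA1-labelled arrays at 18 h. At 42 h it read 319.2, 704.2 and 378.4 on vector-labelled and 189.1, 554.4 and 896.0 on GATA1-labelled arrays. The SD in the last group was 64.7% of its mean. The differences were 0.67 ± 0.53 at 18 h (interval -0.52 to 1.86) and 0.05 ± 0.53 at 42 h (interval -1.13 to 1.24). At 42 h letters A and B gave -0.71 and -0.34 and letter C gave 1.21, so the sign of the small mean difference rests on single arrays (range -0.52 to 0.66 on leaving out arrays). Over time Zfpm1 differed by -0.03 ± 0.30 and -0.39 ± 0.53 in GATA1-labelled cells, and by 0.09 ± 0.30 and 0.22 ± 0.53 in vector-labelled cells.

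Counted together, 0 of the 5 probe sets passed at 18 h by limma, where 0.961% of all probe sets tested did. At an unadjusted p under 0.05 there was 1, that of Gata1, against 7.33% of all probe sets. At 42 h 3 of the 5 passed, all of them lower, against 14.2% of all probe sets passing and 7.03% passing as lower. The interaction was passed by 2 of 5, both of Gata2, where 2.74% of all probe sets tested passed and 1.41% passed as lower. Between the times 2 of 5 passed in GATA1-labelled cells, both of Gata2 and lower, against 9.48% overall and 5.09% lower. In vector-labelled cells 0 of 5 passed by limma between the times, against 0.00874% of all probe sets. At an unadjusted p under 0.05 the count was also 0, against 5.27% of all probe sets. The 18 h and 42 h differences come from different arrays, but their tests share 1 estimate of the spread from all 12 arrays. The interaction and the time comparisons reuse the same arrays, so these counts are not independent of each other.

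**Figure D3:**
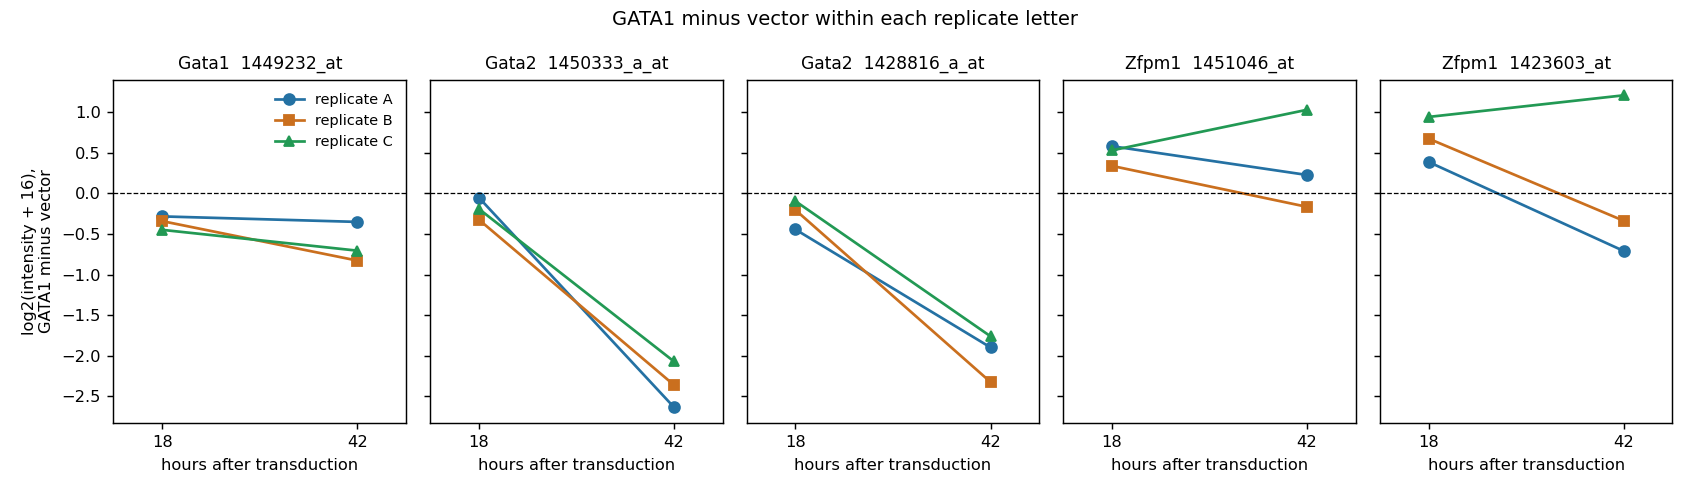
Difference of log2(intensity + 16), GATA1-labelled minus vector-labelled array, within replicate letters A, B and C at 18 h and 42 h for the 5 probe sets. All 3 letters of Gata2 lie between -2.64 and -1.76 at 42 h, while the Zfpm1 letters lie on both sides of 0.

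The ratio of Gata2 to Gata1 signal within each array was lower on all GATA1-labelled arrays at 42 h than on the vector-labelled ones. This ratio is the difference of the log2 values used above, so it is no separate result. The Gata1 probes are not located on the disrupted gene or the retroviral transcript, so it does not measure GATA2 against GATA1. The log2 ratio of Gata2 1450333_a_at to Gata1 was -0.18, 0.38 and -0.17 on vector-labelled arrays A, B and C at 42 h, and -2.46, -1.15 and -1.53 on GATA1-labelled ones. Its mean moved by -1.73, and with 1428816_a_at by -1.37. The groups did not overlap, and the two-sided exact permutation test gave p = 0.1 for both, the smallest that 3 against 3 arrays allow. At 18 h the same ratios moved by 0.17 and 0.11 (exact permutation p = 0.6 and 0.8). Gata2 1450333_a_at relative to Zfpm1 1451046_at moved by -0.67 at 18 h (exact permutation p = 0.2) and by -2.72 at 42 h (p = 0.1, exact permutation).

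The other genes of the GATA and FOG families were mostly at the bottom of the scale. Gata3, Gata4, Gata5 and Gata6, which serve lymphoid, heart and gut tissues, and 1 of the 2 probe sets of Zfpm2 (FOG2) read between 4.02 and 6.96 on all arrays. The other Zfpm2 probe set read 18.5 to 21.7 and differed by -0.01 ± 0.03 at 42 h. Trps1, which encodes a repressor with a GATA-type zinc finger, was lower at 42 h, with a level of 129 ± 6.04 on vector-labelled and 33.7 ± 6.27 on GATA1-labelled arrays (-1.55 ± 0.14, limma adjusted p = 8.18e-05). At 18 h it read 182 ± 21.7 and 107 ± 22.8 (limma adjusted p = 0.0592). Of the 5 family genes tested, 3 fell at 42 h (Gata1, Gata2 and Trps1) and 0 rose. Gata1, Gata2 and Zfpm1 are the members described above, so this count adds only Trps1 and Zfpm2. The median change of the 5 was -0.63, which is the value of Gata1, beside 0.001 over the 10759 genes tested. Of those genes 18.6% passed, 9.42% as lower and 9.20% as higher. At 18 h 0 of the 5 passed, but 1 did under 5 of the alternatives that keep all arrays, the replicate block among them.

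Most genes for known binding partners of FOG1 did not pass the test. Of 15 tested genes, which encode NuRD subunits, the CtBP corepressors and the coiled-coil protein TACC3, 0 passed at 18 h by limma, where 1.37% of genes passed. At an unadjusted p under 0.05 the count was also 0, where 7.33% of all probe sets tested passed. At 42 h 3 rose and 1 fell, with a median of 0.13, where 18.6% of all genes passed, 9.20% as higher and 9.42% as lower. Mbd2, a reader of methylated DNA, went from 1568 ± 73.2 to 2546 ± 244 (0.69 ± 0.12, limma adjusted p = 0.00504). Mta3, a NuRD scaffold subunit, rose by 0.46 and the deacetylase Hdac1 by 0.21. Rbbp7, a histone-binding subunit, fell by 0.38 from 18273 ± 730 to 14075 ± 1173. With the replicate letter as a block 7 of these genes passed at 42 h, and with only the arrays compared 2 did. Without the arrays lettered B 0 passed by limma, and without those lettered A 2 did.

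Of 19 tested partners of GATA factors, 3 rose and 0 fell at 18 h, where 0.902% of genes were higher and 0.465% lower. At 42 h 3 rose and 2 fell, with a median of -0.001, against 9.20% higher and 9.42% lower over all genes. Without the arrays lettered B 3 of the 19 passed at 42 h, where 1133 of all probe sets tested passed (3244 in the main fit). The 3 that rose were the same at both times: Klf1, an erythroid activator, Lmo2, the bridging subunit of the SCL complex, and Gfi1b, an erythroid and megakaryocytic repressor. At 42 h Klf1 went from 242 ± 43.0 to 4231 ± 271. Lmo2 read 2815 ± 659 and 8905 ± 284, and Gfi1b differed by 0.55 ± 0.10. The 2 that fell at 42 h were Lyl1, a relative of SCL (5733 ± 410 to 1895 ± 131), and Spi1, the myeloid regulator PU.1 (315 ± 55.4 to 101 ± 31.7). Tal1, Ldb1, Runx1 and Fli1, other core partners, had differences of -0.02 ± 0.11, 0.22 ± 0.31, -0.51 ± 0.37 and 0.18 ± 0.14 at 42 h and did not pass. At 18 h 0 of the 19 passed in a fit of the 6 arrays alone, and 1 without the 2 arrays of highest 18S signal. Without the arrays lettered A, B or C there were 0, 0 and 1.

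Of 20 tested genes known to be activated by GATA1, a list that includes Zfpm1, 7 rose at 18 h and 15 at 42 h, with medians of 0.63 and 1.87. Over all genes 0.902% were higher at 18 h and 9.20% at 42 h. On vector-labelled arrays at 42 h, Alas2, Hebp1, Add2 and Vwf had means of 3.179, 4.075, 7.51 and 5.283, below all array medians. They passed the filter on low values only through GATA1-labelled arrays, so they could be counted only because they were high there. How many of all genes passed the filter that way was not counted. The largest rise was that of the embryonic globin Hbb-y, from 41.7 ± 13.8 to 13812 ± 4528 at 42 h. At 18 h Hbb-y, Klf1 and the erythropoietin receptor gene Epor led, with differences of 3.99, 2.92 and 1.89. At 42 h the embryonic globin Hbb-bh1 rose by 5.53 and the platelet adhesion gene Vwf by 5.34, while Bcl2l1, a survival gene, fell by 0.41. Of 11 tested genes known to be repressed by GATA1, a list that includes Gata2, 1 fell at 18 h (Kit) and 8 fell at 42 h, with medians of -0.19 and -1.53. Over all genes 0.465% were lower at 18 h and 9.42% at 42 h. Without the arrays lettered B 4 of the 11 passed at 42 h, where 1133 of all probe sets tested passed (3244 in the main fit). On leaving out the arrays of 1 letter, the 18 h counts were 0, 0 and 1 for the activated list and 0 for the repressed list without A, B and C. Over all probe sets tested those 18 h counts were 2, 0 and 31. Cpa3, the mast cell carboxypeptidase, fell by 4.94 at 42 h and Kit, the stem cell factor receptor, fell by 3.42. Gata2 itself fell by 2.36. Hhex, a homeobox gene of progenitors, went from 1149 ± 200.4 to 379 ± 66.2, while Myc differed by -0.02 ± 0.23. In that smaller fit 0 genes of either list passed at 18 h, and Kit was not called there without the arrays of highest 18S signal.

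**Figure D4:**
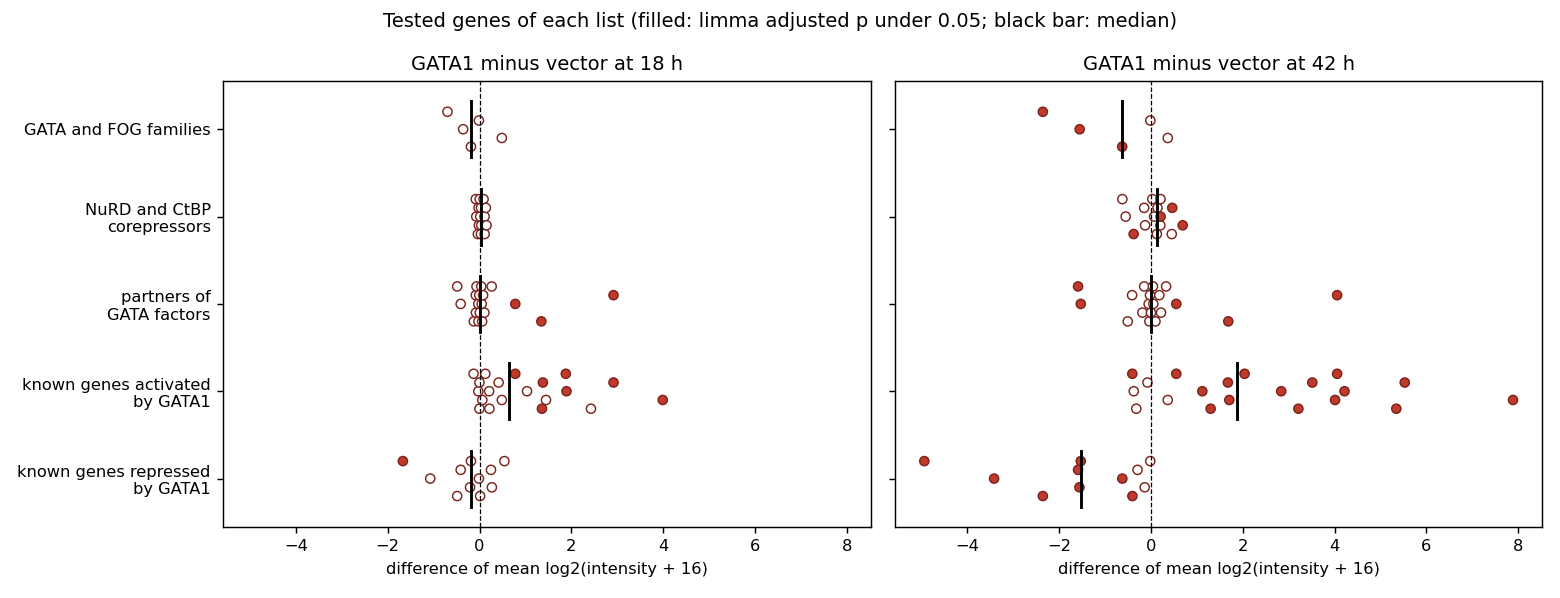
Difference of mean log2(intensity + 16), GATA1-labelled minus vector-labelled, for each tested gene of the 5 lists at 18 h (left) and 42 h (right); filled points passed the threshold and black bars are medians. The medians of the lists of genes known to be activated and repressed by GATA1 move from 0.63 to 1.87 and from -0.19 to -1.53.

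Sums of some marker lists differed between the groups at 42 h, where Gata2 fell, and already at 18 h, where Gata2 did not pass. The sum of 8 progenitor markers, Gata2 among them, overlapped at 42 h, at 13754 to 15884 on vector-labelled and 12508 to 14353 on GATA1-labelled arrays. Of its 7 tested genes 3 passed as lower at 42 h (Kit, Gata2 and Myb). The 2 that passed as higher were Slamf1 (2.32 ± 0.19) and Cd9 (1.09 ± 0.17). The summed intensity of 9 mast cell and basophil markers was 1568 to 2638 in vector-labelled and 82.2 to 117 in GATA1-labelled arrays at 42 h, mostly from Cpa3. At 18 h it was 1498 to 2205 and 805 to 937. Of those 9, 7 were at or below the array median on all arrays, including the mast cell genes Fcer1a, Ms4a2, Tpsb2 and Cma1. The sum of 6 erythroid markers went from a range of 429 to 959 to one of 32492 to 38493, and that of 7 megakaryocyte markers from 16336 to 16894 to a range of 31740 to 40298. The megakaryocyte rise came mostly from Pf4 (8111 ± 596 to 17656 ± 1896), Tubb1 (363 ± 63.3 to 6119 ± 1265) and Gp1bb (1731 ± 109 to 5737 ± 1056). Of these 7 markers 5 passed as higher at 42 h. Vwf among them passed the filter on low values only through GATA1-labelled arrays, as did Alas2 among the erythroid markers. Gp9 and Itga2b were lower without passing (-0.38 ± 0.11 and -0.32 ± 0.13). At 18 h the erythroid sum was 375 to 1531 on vector-labelled and 3861 to 5640 on GATA1-labelled arrays, and the megakaryocyte sum 14495 to 17783 and 21718 to 27271. The sum of 9 neutrophil and monocyte markers was 579 to 885 and 372 to 472 at 42 h, mostly from Lyz2, which did not pass (limma adjusted p = 0.0767). Within that list the granule genes Mpo and Prtn3 went opposite ways, Mpo by -2.67 ± 0.41 and Prtn3 by 0.99 ± 0.15 (limma adjusted p = 0.00202 and 0.00157). The 6 lymphoid markers summed to 36.4 to 37.9 in all groups and 5 of them stayed at or below the array median, as did all 4 fibroblast markers (26.4 to 28.0 in sum). In such bulk samples, fewer cells of a type and less RNA per cell cannot be told apart, and the part of these changes in the fall of Gata2 was not tested.

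Genes most like the brightest probe set of each member were sought by Pearson's r of log2 values over the 12 arrays among 10242 tested genes. These r values are descriptions, since the arrays share groups and letters. For Gata2 they were Gpd1l (0.973), Vamp8 (0.970), Tyrobp (0.970), Elmo1 (0.969) and Tk2 (0.968), and the most opposed were Ftsj1 (-0.983), Gfm1 (-0.979) and Rnf14 (-0.975). The immune adaptor gene Tyrobp read 1216 ± 257 and 940 ± 219 on vector-labelled and GATA1-labelled arrays at 18 h, and 1072 ± 80.1 and 147 ± 48.6 at 42 h. For Gata1 they were Xaf1 (0.962), Ppcdc (0.947), Slc39a10 (0.940), Trim14 (0.939) and Bcl3 (0.937), opposed by Ilvbl (-0.962), Ndufb1 (-0.945) and Lcmt1 (-0.936). Xaf1 read 292 ± 28.0 and 253 ± 4.68 at 18 h, and 307 ± 11.6 and 216 ± 36.4 at 42 h. For Zfpm1 they were Wbp2 (0.955), Samd1 (0.939), Uck2 (0.937), Ap2a1 (0.930) and Hdgfl2 (0.925), opposed by Zc3h14 (-0.979), Ctnnb1 (-0.959) and Gca (-0.939). Wbp2 read 397 ± 103 and 446 ± 102 at 42 h, a difference within its SD.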

How the data were processed

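The deposited values are linear intensity values, 1 per probe set and array. GCRMA and MAS5 are listed per the submitters' processing notes, with no word on which one gave the authors' values, so background correction and scaling are not given in the sources used here. The arrays are close to each other in level and no further normalization was applied. Probe sets were named through the platform annotation, which has 1 symbol for 34945, several for 932 and none for 9160 of 45037 probe sets that are not controls. Gene IDs of 34741 matched RefSeq genes of GRCm38.p6.

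Tests used limma 3.58.1 in R 4.3.3 (lmFit, eBayes) on log2(intensity + 16) over all 12 arrays in 4 groups, for probe sets above the array median on at least 3 arrays. They were two-sided, with a threshold of 0.05 after adjustment. The fold of dim probe sets is understated by the pseudocount of 16. P-values measure the spread between these samples. In lists and in the search for genes most alike, the probe set with the highest mean stood for a gene; each list names its up to 3 largest rises and falls past the threshold, other genes being named after their values were seen. The members and lists were chosen with earlier results of these data known. The code was tested on simulated data.

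Replicate letters were checked for pairing by correlating deviations from group means over all tested probe sets. Same-letter arrays correlated by 0.605, 0.158 and 0.582 (A, B and C) between the groups at 18 h and by 0.562, 0.290 and 0.513 at 42 h. For A and C these were above every value between different letters at the same time, so these letters pair the groups. For B the pairing is not clear: vector-labelled B correlated with GATA1-labelled C by 0.090 at 18 h and by 0.340 at 42 h. This comes from the data, not from the labels. Between the times in GATA1-labelled cells letter B gave -0.019. Alternatives were the pseudocount (1, 64), the filter (none, or intensity over 100), quantile normalization, the replicate block, only the arrays compared, array weights, a fit over genes, another prior and leaving out arrays.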

Additional observations from a re-analysis of the deposited data

Results flagged for a closer look

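The effect of the GATA1 label on Gata2 differed between 18 h and 42 h by limma's test of that difference itself. It was -2.17 on 1450333_a_at and -1.75 on 1428816_a_at (log2). Within letters A, B and C it was -2.58, -2.04 and -1.88 on the first and -1.45, -2.12 and -1.67 on the second. Any other pairing of these arrays would also give negative values, so the shared sign adds no support. The call held in 10 of 25 alternatives for the first probe set and in 16 of 24 for the second.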

How the results depend on the processing

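The fall of Gata2 at 42 h passed under all alternatives run on both probe sets, and Zfpm1 passed under none of its alternatives in any comparison. With the replicate block no call on a member changed in any comparison: the limma adjusted p of Gata2 1450333_a_at at 42 h was 4.20e-04, and that of Zfpm1 1451046_at was 0.517 at 18 h. The block moved the count of probe sets passing at 18 h from 220 to 412, for the interaction from 626 to 1023 and for vector-labelled cells over time from 2 to 26.

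The Gata1 fall at 42 h did not pass with only the arrays compared (-0.63). The interaction of Gata2 did not pass without the filter on low values (-2.17 and -1.75 on 1450333_a_at and 1428816_a_at) or without the 2 arrays of highest 18S signal (-1.87 and -1.60), a setting chosen after seeing the data. Without those 2 arrays the uncalled Zfpm1 differences over time in GATA1-labelled cells turned to 0.11 and 0.21. The cause was not tested.

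The count at 18 h was 126 without the filter, 342 with array weights, 8 with only the arrays compared and 102 without those 2 arrays. The count at 42 h (3244) was 2126 with only the arrays compared. The interaction count was 352 without the filter and 408 without those 2 arrays. The count over time in GATA1-labelled cells (2170) was 3625 with array weights. In vector-labelled cells it was 0 with the stricter filter, with only the arrays compared and without those 2 arrays, and 4 with array weights and with a prior that follows the mean.

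Leaving out 1 array or 1 letter gave counts from 0 to 242 at 18 h, 1133 to 3224 at 42 h, 51 to 670 for the interaction, 432 to 2198 over time in GATA1-labelled cells and 0 to 7 in vector-labelled cells. The Gata1 difference at 42 h ran from -0.77 to -0.51. For 1450333_a_at the ranges were -0.43 to 0.061 at 18 h, -2.42 to -1.92 for the interaction, -2.26 to -1.73 over time in GATA1-labelled and -0.026 to 0.50 in vector-labelled cells. For 1428816_a_at the range at 18 h was -0.45 to -0.07, and the last 3 were -1.92 to -1.54, -1.71 to -1.33 and -0.035 to 0.40. For Zfpm1 1451046_at the ranges were 0.22 to 0.70 at 18 h and 0.03 to 0.63 at 42 h, and the last 3 were -0.43 to 0.14, -0.26 to 0.17 and -0.17 to 0.28. For 1423603_at the ranges were -0.52 to 0.66 at 42 h, and over time -0.86 to 0.21 in GATA1-labelled and -0.11 to 0.44 in vector-labelled cells. Of the gene lists at 42 h, the NuRD and CtBP count ran from 0 to 4, that of partners from 3 to 6, of activated genes from 11 to 17 and of repressed genes from 4 to 8. Precision is limited by 3 arrays a group.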

Other observations

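Trps1 has 4 tested probe sets, and 3 of them fell on GATA1-labelled arrays at 42 h by limma, with changes of -1.55 (adjusted p = 8.18e-05) on 1449530_at, -1.02 (0.00394) on 1434286_at and -0.93 (5.31e-04) on 1438214_at. The dimmest, 1457445_at, differed by -0.36 ± 0.24. These values were looked up after the fall of Trps1 had been seen.

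Both Gata2 probe sets and the Zfpm1 probe set 1423603_at were lowest on the array lettered A in all 4 groups, and Zfpm1 1451046_at in 3 of 4. Of all 22881 probe sets tested, 7.41% were lowest on A in all 4 groups, 1.18% on B and 5.21% on C. Over the 12 deviations from group means, Gata2 1450333_a_at correlated by 0.87 with the other Gata2 probe set, and by 0.58 and 0.75 with the Zfpm1 probe sets 1451046_at and 1423603_at. Gata1 correlated by -0.12 with Gata2 1450333_a_at and by 0.01 with Zfpm1 1451046_at. The 18S readings given above also differed by letter, and the part of these in the pattern was not tested.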
